A study of Homo sapiens with 3 samples.

Results

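Glucocorticoid-responsive genes were followed across HT-29, MDA-MB-436 and MCF10A cells as 10 genes named by symbol: TSC22D3, FKBP5, PER1, ZBTB16, SCNN1A, TFCP2L1, KLF9, DUSP1, SGK1 and ERRFI1. They were chosen because the steroid is known to act on them, and with earlier results of these data known. All 10 were found on the array, among 14410 genes that had a transcript cluster of their own. Of the 10, 9 had such a cluster. FKBP5 shared its single cluster with the long non-coding RNA gene LOC285847, so that signal could not be divided between them, and it is given apart from the counts.

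Total RNA was hybridised to exon arrays, 1 array for each line. HT-29 is a colon adenocarcinoma line, kept in McCoy's medium with fetal bovine serum and exposed for 24 h to interferon gamma (IFN-γ), a cytokine, at 200 U/ml. MDA-MB-436 is a breast adenocarcinoma line and was kept in L-15 medium with fetal bovine serum. MCF10A is a non-tumorigenic mammary epithelial line. Its medium, DMEM/F12 with horse serum, held hydrocortisone at 500 ng/ml, and also epidermal growth factor (EGF) at 20 ng/ml, cholera toxin at 100 ng/ml and insulin at 10 µg/ml. The labels name hydrocortisone for this medium alone, and no culture of MCF10A without it was analysed here. Line, tissue, medium, steroid and cytokine therefore differ together between the arrays and cannot be told apart, and serum, which itself carries steroids, was in every medium. With 1 array for each line there was no spread between replicates, and no test could be made.

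Hydrocortisone is cortisol, the main human glucocorticoid. It binds the glucocorticoid receptor, encoded by NR3C1, which chaperones hold in the cytoplasm until the steroid arrives. The loaded receptor enters the nucleus and binds DNA, mostly at enhancers away from the gene start, where it switches on genes such as those followed here, and it dampens inflammatory genes through other factors. In epithelia its targets include the machinery of sodium uptake. In mammary epithelium it serves growth in culture and milk protein expression.

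The array value is an intensity on a linear scale, and background was set at 29.9. Of the values of 228 olfactory receptor genes, taken as silent in these lines, 95% over the 3 arrays lay at or under it. The brightest value reached 101. A value between 29.9 and 101 is hard to tell from background. A gene counted as different when its intensities differed at least 4-fold and the brighter one lay above background. Where the dimmer array was under 29.9, the fold was taken against 29.9 instead and is written "at least". Intensities of different genes rest on different probes and are not compared with each other. Cultures were measured in bulk, so fewer cells expressing a gene and less RNA per cell cannot be told apart. Median intensities were alike, 75.9 for HT-29, 81 for MDA-MB-436 and 75.1 for MCF10A, and the reference genes GAPDH and ACTB differed by at most 1.08-fold between arrays. The labels were checked on marker genes. Of 9 colon epithelial markers, 8 lay above background in HT-29, 2 in MDA-MB-436 and 1 in MCF10A, and the intestinal cadherin gene CDH17 was under background in HT-29. In HT-29 the markers CDX1, GPA33 and CDX2 were under 101, at 34.8, 67.7 and 74.8. CDX2 was also at 51.9 in MDA-MB-436 and 53.2 in MCF10A. Of 10 basal mammary markers listed 5 were measured, and all 5 lay above background in MCF10A, against 3 in HT-29 and 1 in MDA-MB-436. Of 10 luminal mammary markers, 7 lay above background in HT-29, 5 in MDA-MB-436 and 6 in MCF10A. Of 10 mesenchymal markers 2 did in HT-29, 10 in MDA-MB-436 and 7 in MCF10A. The 2 in HT-29, TWIST1 and COL1A1, were under 101, at 38.2 and 51.8. Also under 101 were CDH2, ZEB1, ZEB2 and COL1A1 in MCF10A and COL3A1, COL1A1 and SPARC in MDA-MB-436. Some basal and luminal markers were as dim, such as CDH3 at 62.2 in HT-29. The luminal factor gene GATA3 was under background in MDA-MB-436, and the estrogen receptor gene ESR1 in every line.

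The stretches upstream of the gene starts are shown because the MCF10A medium held agents known to act through short DNA motifs: hydrocortisone through the glucocorticoid response element and cholera toxin, which raises cAMP, through the cAMP response element. RefSeq (build GRCh38.p14) gave 14 windows of 250 bases for 8 of the members, and ZBTB16 and SCNN1A were not among them. The response element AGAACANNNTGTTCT was in 0 of the 14 windows and in 0.00285% of the 35116 windows of all genes, and its 6-base arm AGAACA, on either strand, was in 0 of 14 and in 12.4% of all. The cAMP response element TGACGTCA was in the DUSP1 window and in 1.65% of all windows. The E-box CACGTG, which clock factors bind, was in 1 window each of DUSP1, PER1 and FKBP5 and in 6.34% of all. The TATA box TATAAA, on either strand, was in 5 of the 14, those of DUSP1, SGK1 and TSC22D3, and in 10.7% of all. These motifs did not overlap each other in the members. A missing match says only that the letters are not in the window. The windows below are the 3 that held an E-box and that of TFCP2L1, the member with the greatest fold between 2 arrays that were both above background; all lie on the minus strand, run 5′ to 3′ and end at the base before the gene start, with matches in capitals. DUSP1 is at chr5:172771196-172771445, PER1 at chr17:8152405-8152654, FKBP5 at chr6:35688916-35689165 and TFCP2L1 at chr2:121285203-121285452.
DUSP1: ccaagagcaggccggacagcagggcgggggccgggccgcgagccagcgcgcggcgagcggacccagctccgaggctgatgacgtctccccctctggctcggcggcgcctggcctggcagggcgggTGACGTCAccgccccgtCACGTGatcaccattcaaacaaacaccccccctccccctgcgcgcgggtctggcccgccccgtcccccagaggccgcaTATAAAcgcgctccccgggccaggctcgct
PER1: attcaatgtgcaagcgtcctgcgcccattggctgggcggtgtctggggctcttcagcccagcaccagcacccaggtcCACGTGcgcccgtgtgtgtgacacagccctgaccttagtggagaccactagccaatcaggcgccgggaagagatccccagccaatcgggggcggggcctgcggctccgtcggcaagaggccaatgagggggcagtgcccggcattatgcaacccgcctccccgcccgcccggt
FKBP5: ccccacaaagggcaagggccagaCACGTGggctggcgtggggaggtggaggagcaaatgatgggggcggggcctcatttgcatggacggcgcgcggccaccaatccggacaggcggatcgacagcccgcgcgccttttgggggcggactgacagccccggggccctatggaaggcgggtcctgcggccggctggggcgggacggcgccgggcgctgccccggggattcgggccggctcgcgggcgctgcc
TFCP2L1: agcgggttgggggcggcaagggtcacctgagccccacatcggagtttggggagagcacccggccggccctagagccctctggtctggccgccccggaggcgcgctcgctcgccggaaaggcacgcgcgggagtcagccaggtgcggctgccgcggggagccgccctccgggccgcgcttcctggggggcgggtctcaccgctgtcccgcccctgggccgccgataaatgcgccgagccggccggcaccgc
The DUSP1 window held the cAMP response element, the E-box and a TATA box, whereas that of TFCP2L1, with a GC content of 76.8%, held none of the motifs searched.

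Across the 3 arrays the members did not behave as a block. MCF10A had the highest intensity for 7 of the 10, counting the FKBP5 cluster, HT-29 for 2 and MDA-MB-436 for 1, while MDA-MB-436 had the lowest for 6 and HT-29 for 4. Among the 10709 genes above background in any line, MCF10A was the highest for 33.4%, HT-29 for 37.8% and MDA-MB-436 for 28.8%. No such share was computed for the lowest line. MCF10A was also the highest for 9 of the 11 measured chaperone genes of the receptor. Some members were far higher in MCF10A than in both other lines, such as TFCP2L1, some were high in HT-29 as well, such as SCNN1A, and some lay within about 2-fold everywhere, such as DUSP1.

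**Figure D1:**
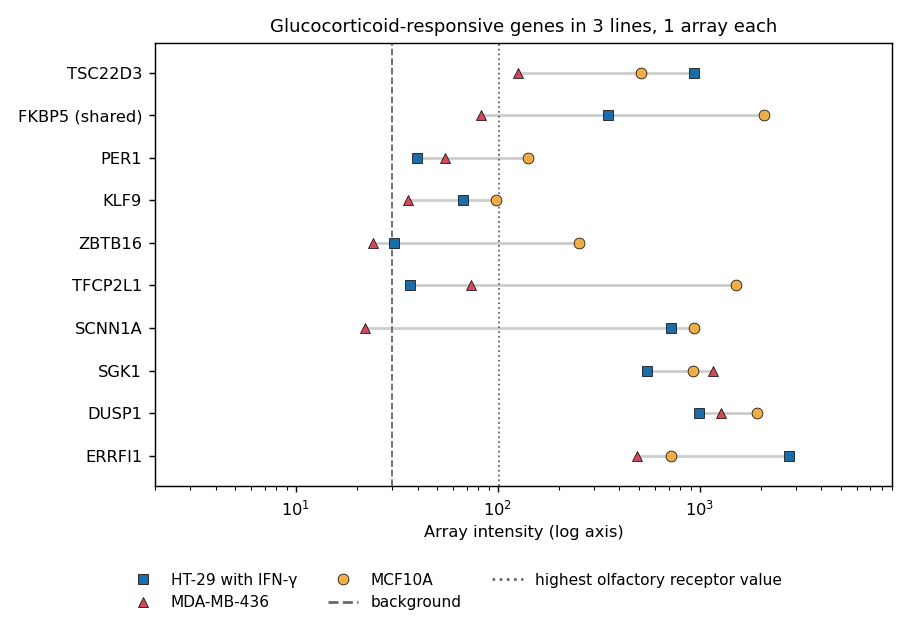
Intensity (log axis) of the 10 glucocorticoid-responsive genes in HT-29 with IFN-γ (squares), MDA-MB-436 (triangles) and MCF10A (circles), 1 array each; the dashed line is the background of 29.9 and the dotted line the highest olfactory receptor value, 101. TFCP2L1, ZBTB16 and the FKBP5 cluster lie far to the right in MCF10A alone, TSC22D3 and SCNN1A are high in HT-29 and MCF10A, and SGK1 and DUSP1 lie close together.

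In MDA-MB-436 against MCF10A, both mammary lines, the members were mostly lower. Of the 9 with a cluster of their own, 4 were at least 4-fold lower (background over all genes 2.01%) and 0 higher (3.65%), and at 2-fold 6 were lower (8.74%) and 0 higher (8.76%). Their median log2 difference was -1.45, against 0.02 over all 14410 genes. In HT-29 with IFN-γ against MCF10A, 2 of 9 were at least 4-fold lower (3.5%) and 0 higher (4.34%), and at 2-fold 3 were lower (10.1%) and 1 higher (10.2%), with a median of -0.75 against 0.11 over all genes. Both comparisons share the MCF10A array. In HT-29 against MDA-MB-436, neither with hydrocortisone named in its medium, 3 of 9 were at least 4-fold higher (4.21%) and 0 lower (4.68%), and at 2-fold 3 were higher (11.5%) and 1 lower (11%). The median there was 0.34, against 0.08 over all genes, and with values under background set to the background it was 0.03, against 0 over all genes. These counts rest on single arrays of different lines. The members were picked by name with earlier results of these data known, so the shares over all genes are no independent test.

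**Figure D2:**
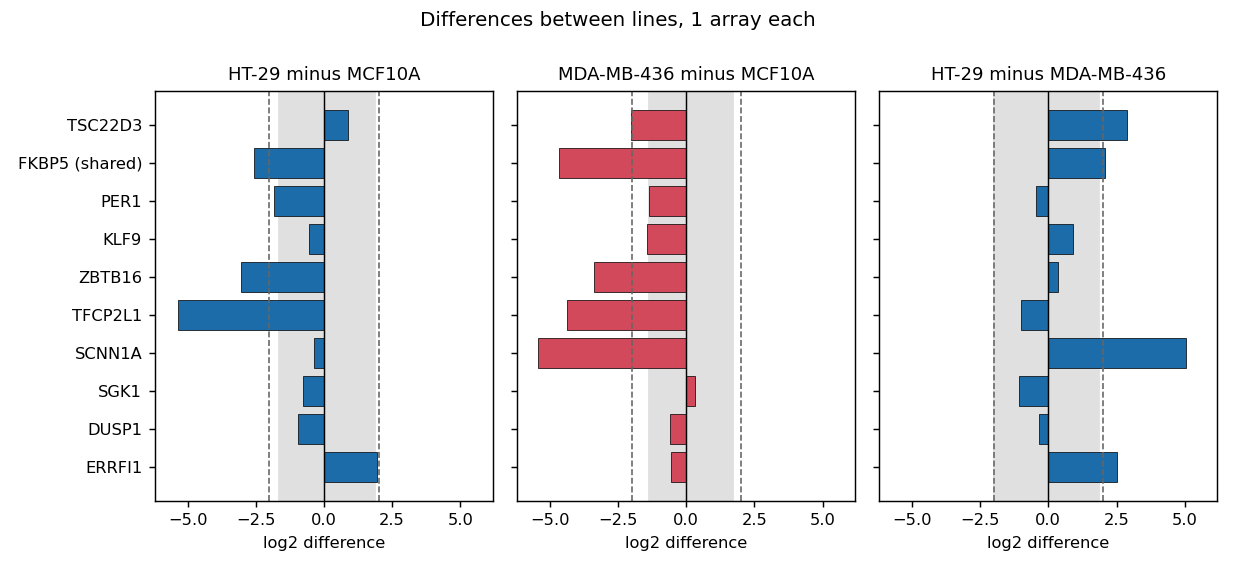
Log2 difference of intensity (x axis) of the 10 genes for HT-29 minus MCF10A, MDA-MB-436 minus MCF10A and HT-29 minus MDA-MB-436; grey bands run between the 5th and 95th percentiles of all genes and dashed lines mark a 4-fold difference. Values are as measured, also where an array was under background. The middle panel has 9 of 10 bars to the left of 0, with SCNN1A at -5.41, and the right panel has TSC22D3, FKBP5, SCNN1A and ERRFI1 past 4-fold on the right.

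TSC22D3 encodes GILZ, a leucine zipper protein that carries part of the anti-inflammatory action of glucocorticoids. Its intensity was 932 in HT-29 and 126 in MDA-MB-436, against 512 in MCF10A. The order was thus HT-29, MCF10A, MDA-MB-436. Relative to MCF10A it was 1.82-fold higher in HT-29 and 4.05-fold lower in MDA-MB-436, just past the threshold and 3.83-fold after quantile normalization. HT-29 exceeded MDA-MB-436 7.38-fold. TSC22D3, a target of the steroid in many tissues, was highest in HT-29, which was given IFN-γ and has no hydrocortisone named. What set its order was not tested.

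FKBP5 encodes FKBP51, a co-chaperone that lowers the receptor's affinity for steroid and closes a feedback loop. The cluster annotated with FKBP5 and LOC285847 was at 350.1 in HT-29 and 82.6 in MDA-MB-436, against 2076 in MCF10A. MCF10A stood far above both other lines. Relative to MCF10A the cluster was 5.93-fold lower in HT-29 and 25.1-fold lower in MDA-MB-436, and it was 4.24-fold higher in HT-29 than in MDA-MB-436. The MDA-MB-436 value lies under the highest olfactory receptor value.

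PER1, a repressor of the circadian clock, was at 39.6 in HT-29 and 54.7 in MDA-MB-436, against 142 in MCF10A. Only the MCF10A value lay above the highest olfactory receptor value. PER1 was 3.57-fold lower in HT-29 and 2.59-fold lower in MDA-MB-436, both short of 4-fold. KLF9, a zinc finger repressor, was at 67.4 in HT-29 and 35.7 in MDA-MB-436, against 97.6 in MCF10A. It kept the order of the FKBP5 cluster, but all 3 values lie under 101, and its differences of 1.45-fold and 2.73-fold below MCF10A are between dim values.

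ZBTB16 encodes PLZF, a transcription repressor whose gene is strongly switched on by glucocorticoids in many cell types. Its intensity was 30.6 in HT-29 and 24.2 in MDA-MB-436, against 253 in MCF10A. It was clearly above background in MCF10A alone. ZBTB16 was 8.26-fold lower in HT-29, which sat just above background, and in MDA-MB-436 the fold was at least 8.46.

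TFCP2L1 encodes a transcription factor of the grainyhead family, known from kidney collecting duct and from pluripotent cells. Its intensity was 36.9 in HT-29 and 73.3 in MDA-MB-436, against 1512 in MCF10A. MCF10A stood far above both lines, by more than for any other member when the smaller of the folds is taken. TFCP2L1 was 41-fold lower in HT-29, where 42 of 14410 genes had a lower difference, and 20.6-fold lower in MDA-MB-436, where 55 did. Its values in HT-29 and MDA-MB-436 lie under the highest olfactory receptor value, so the size of these folds is uncertain. Its close relatives TFCP2 and UBP1 differed by at most 1.6-fold from MCF10A in either line. The epithelial relative GRHL3 was at 55.9 in HT-29 and 20.4 in MDA-MB-436, against 220 in MCF10A. GRHL2 had another pattern, at 489 in HT-29 and under background in both mammary lines.

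SCNN1A encodes the alpha subunit of the epithelial sodium channel, through which sodium enters cells from the lumen. Its intensity was 723 in HT-29 and 21.9 in MDA-MB-436, against 935 in MCF10A. Both HT-29 and MCF10A were bright and MDA-MB-436 was under background. Relative to MCF10A, SCNN1A was 1.29-fold lower in HT-29, and in MDA-MB-436 the fold was at least 31.2; HT-29 exceeded MDA-MB-436 at least 24.2-fold. SGK1 encodes a kinase that keeps the channel at the membrane by blocking its ubiquitin ligase. Its intensity was 549 in HT-29 and 1159 in MDA-MB-436, against 926 in MCF10A. SGK1 was the member highest in MDA-MB-436, 1.25-fold above MCF10A, while HT-29 was 1.69-fold below MCF10A and 2.11-fold below MDA-MB-436.

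DUSP1 encodes a phosphatase that switches off stress-activated kinases. Its intensity was 994 in HT-29 and 1271 in MDA-MB-436, against 1922 in MCF10A. It was bright everywhere, and relative to MCF10A 1.93-fold lower in HT-29 and 1.51-fold lower in MDA-MB-436. ERRFI1 encodes MIG6, an inhibitor of the EGF receptor. Its intensity was 2774 in HT-29 and 487 in MDA-MB-436, against 721 in MCF10A. HT-29 stood apart, 3.85-fold above MCF10A and 5.7-fold above MDA-MB-436, and MDA-MB-436 was 1.48-fold below MCF10A. Next to the 4-fold threshold lay TSC22D3 inside it in MDA-MB-436 and ERRFI1 and PER1 outside it in HT-29.

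The receptor itself separated HT-29 from both mammary lines. NR3C1 was at 15.5 in HT-29 and 504 in MDA-MB-436, against 481 in MCF10A. In HT-29 it was under background and at least 16.1-fold lower than in MCF10A and 16.9-fold lower than in MDA-MB-436. The mammary lines differed 1.05-fold, and centring each array on its median turned the sign. MDA-MB-436 had an NR3C1 intensity near that of MCF10A, and 8 of the 9 members with their own cluster were lower there than in MCF10A. HT-29 had no NR3C1 above background, and 7 of the 9 were lower there than in MCF10A and 2 higher. The 2 higher in HT-29, TSC22D3 and ERRFI1, were both short of 4-fold over MCF10A. TFCP2L1, ZBTB16 and the FKBP5 cluster instead fell short of MCF10A, by 41-fold, 8.26-fold and 5.93-fold. Whether NR3C1 RNA set the level of any member was not tested, nor whether HT-29 or MDA-MB-436 answered to steroid. NR3C2, which encodes the mineralocorticoid receptor and also binds cortisol, was at 33.9 in HT-29, 32.4 in MDA-MB-436 and 14.1 in MCF10A, near or under background in all.

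Of 9 measured genes of receptors and steroid handling, 1 was at least 4-fold higher (4.34% of all genes) and 1 lower (3.5%) in HT-29 than in MCF10A, and 0 (3.65%) and 1 (2.01%) in MDA-MB-436. CYP3A5, a cytochrome that hydroxylates steroids, was at 1049 in HT-29 and 12.7 in MDA-MB-436, against 13.3 in MCF10A, at least 35.1-fold higher in HT-29. HSD11B2, whose enzyme turns cortisol into inactive cortisone, was at 33.5 in HT-29 and 7.79 in MDA-MB-436, against 62.5 in MCF10A. By measured intensity it counted as lower in MDA-MB-436, at least 2.09-fold, but none of its values exceeds the brightest olfactory receptor gene. HSD11B1, whose enzyme makes cortisol from cortisone, was under background in every line, as were the steroid exporter gene ABCB1 and the steroid reductase gene AKR1D1. H6PD, which supplies the cofactor of HSD11B1, was at 219.8 in HT-29 and 89.7 in MDA-MB-436, against 77.8 in MCF10A. POR, the electron donor of cytochromes, was at 678 in HT-29 and 535 in MDA-MB-436, against 553 in MCF10A.

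**Figure D3:**
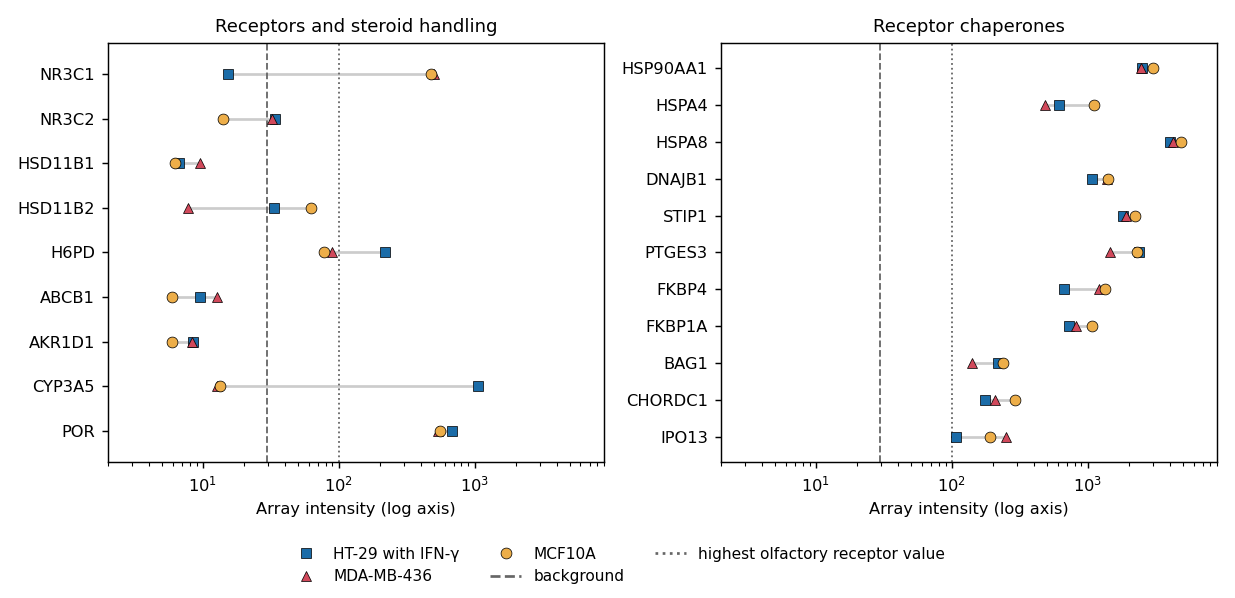
Intensity (log axis) of genes of receptors and steroid handling (left) and of receptor chaperones (right) in HT-29 with IFN-γ, MDA-MB-436 and MCF10A, 1 array each, with the background of 29.9 (dashed) and the highest olfactory receptor value of 101 (dotted). NR3C1 is under background in HT-29 alone, CYP3A5 is bright in HT-29 alone, and the chaperones lie close together in all lines.

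Few of the receptor's chaperones and coregulators were past 4-fold. Few of all genes were either, 2.01% to 4.68% in each comparison and direction, so low counts in lists this short say little. All 11 chaperone genes were above background in every line and none was past 4-fold in any comparison, with medians of -0.37 in HT-29 and -0.29 in MDA-MB-436 against MCF10A. HSP90AA1, which encodes the chaperone HSP90, was at 2520 in HT-29 and 2472 in MDA-MB-436, against 3019 in MCF10A. FKBP4 encodes FKBP52, the counterpart of FKBP51 that favours steroid binding. It was at 674 in HT-29 and 1208 in MDA-MB-436, against 1334 in MCF10A, so it did not share the wide range of the FKBP5 cluster. Of 17 coregulator genes, 0 were past 4-fold against MCF10A in either line, and 1, TGFB1I1, was 6.32-fold lower in HT-29 than in MDA-MB-436.

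A wider list held 38 measured genes known to be induced by glucocorticoids in some cell type, apart from the members. In HT-29 against MCF10A 2 were at least 4-fold higher and 6 lower, with shares over all genes of 4.34% and 3.5%. In MDA-MB-436 against MCF10A 2 were higher and 8 lower, with shares over all genes of 3.65% and 2.01%. Their median log2 differences were 0.08 and -0.30. The first median turned to -0.01 after quantile normalization and to -0.02 with values under background set to the background. In both lines 6 of the 38 were at least 4-fold below MCF10A, as were 127 of all 14410 genes, or 0.881%. STOM, which encodes the membrane protein stomatin, was at 34.7 in HT-29 and 140.0 in MDA-MB-436, against 1282 in MCF10A. MAOA, which encodes monoamine oxidase A, was at 194 in HT-29 and 32.9 in MDA-MB-436, against 811 in MCF10A, and its call in HT-29, at 4.17-fold, was lost after quantile normalization. With TFCP2L1 and ZBTB16, these genes were brightest in MCF10A and dim or much lower in both other lines. ALOX15B, a lipoxygenase gene, was under background in HT-29 and MDA-MB-436 and at 382 in MCF10A, at least 12.8-fold lower in each. ANGPTL4, an inhibitor of lipoprotein lipase, was at 22.9 in HT-29 and 66.0 in MDA-MB-436, against 594 in MCF10A. PDK4, a brake on pyruvate oxidation, was at 54.4 in HT-29 and 24.8 in MDA-MB-436, against 255 in MCF10A.

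Other genes of that list went against this order. LCN2, which encodes the iron-trapping protein lipocalin 2, was at 2348 in HT-29 and 468 in MDA-MB-436, against 56.1 in MCF10A. STEAP4, which encodes a metalloreductase, had an intensity of 1041 in HT-29 and was under background in both mammary lines. TNFAIP3, a feedback inhibitor of NF-κB, was at 92.8 in HT-29 and 986 in MDA-MB-436, against 131 in MCF10A. LAD1, an anchoring filament gene of epithelia, followed SCNN1A instead, at 1275 in HT-29 and 56.4 in MDA-MB-436, against 1335 in MCF10A. The metallothionein gene MT2A, a classical target, was at 443 in HT-29 and 383 in MDA-MB-436, against 757 in MCF10A, short of 2-fold in each. The liver targets TAT and PCK1 were under background in all lines.

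Among inflammatory genes that glucocorticoids are known to hold down, nearly all those past 4-fold in MDA-MB-436 against MCF10A were higher there. Of 23 measured, 11 were at least 4-fold higher (3.65% of all genes) and 1 lower (2.01%) than in MCF10A. The median log2 difference was 1.47, or 0.78 with values under background set to the background. In HT-29 against MCF10A 2 were higher (4.34%) and 4 lower (3.5%), with a median of 0.29, or 0 with that floor. In HT-29 against MDA-MB-436 0 were higher (4.21%) and 8 lower (4.68%), with a median of -0.91. With the same floor 10 were higher and 1 lower in MDA-MB-436 than in MCF10A. The floored counts were 2 higher and 3 lower in HT-29 against MCF10A, and 0 and 6 against MDA-MB-436. Shares over all genes were not computed with the floor. CCL2, which encodes a chemokine, had intensities of 18.6 in HT-29 and 1172 in MDA-MB-436, against 20.9 in MCF10A. IL6, which encodes a cytokine, had 9.09 in HT-29 and 378 in MDA-MB-436, against 7.62 in MCF10A. IL6 had 2 clusters, these values are of the one with the highest mean, and the size of its differences depended on that choice. On the clusters used, CCL2 and IL6 were above background in MDA-MB-436 alone. IL1A, another cytokine gene, was bright in both mammary lines, at 26.5 in HT-29 and 1933 in MDA-MB-436, against 1416 in MCF10A. IL1B, its relative, was at 14.4 in HT-29 and 1277 in MDA-MB-436, against 113 in MCF10A. LIF, a cytokine of the IL6 family, was at 150.1 in HT-29 and 338 in MDA-MB-436 and under background in MCF10A. MDA-MB-436 was highest for all of these cytokine and chemokine genes, which were named for their large differences. CSF3, a cytokine gene of the list short of 4-fold, was at 120 in HT-29 and 125 in MDA-MB-436, against 204 in MCF10A. The cytokine genes IL11 and TNF were under background in every line. ICAM1, an adhesion molecule that IFN-γ also induces, was at 2570 in HT-29 and 1050 in MDA-MB-436, against 74.9 in MCF10A. PLAT, which encodes tissue plasminogen activator, ran the other way, at 24.3 in HT-29 and 119 in MDA-MB-436, against 552 in MCF10A.

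**Figure D4:**
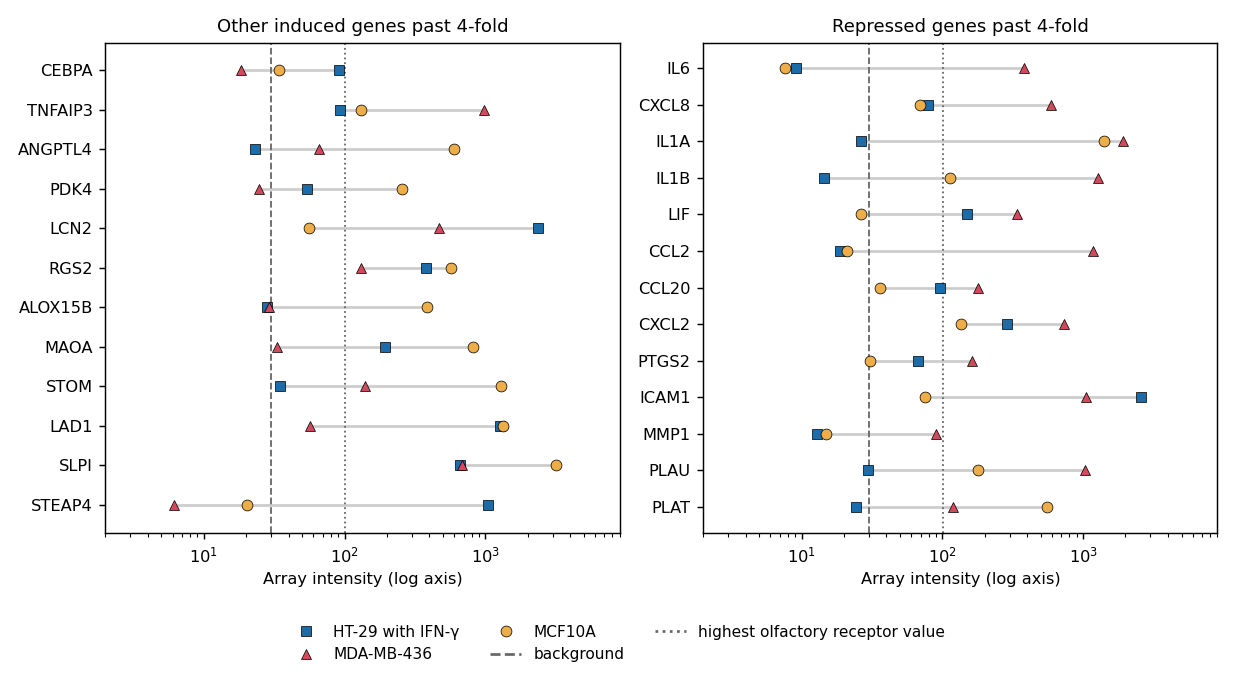
Intensity (log axis) of other glucocorticoid-induced genes (left, 12 genes) and of glucocorticoid-repressed inflammatory genes (right, 13 genes) that were past 4-fold in any comparison, in HT-29 with IFN-γ, MDA-MB-436 and MCF10A, 1 array each, with the background of 29.9 (dashed) and the highest olfactory receptor value of 101 (dotted). On the left MCF10A is brightest for STOM, MAOA, ALOX15B, ANGPTL4, PDK4 and SLPI and, by under 2-fold over HT-29, for LAD1 and RGS2, and on the right MDA-MB-436 is brightest for all but ICAM1 and PLAT.

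The beta and gamma subunit genes of the channel were not bright in HT-29, where SCNN1A was. SCNN1B, the beta subunit, was at 20.3 in HT-29 and 23.6 in MDA-MB-436, against 184 in MCF10A. SCNN1G, the gamma subunit, was at 12.1 in HT-29 and 14.1 in MDA-MB-436, against 859.8 in MCF10A, at least 28.7-fold lower in each. MCF10A was thus the one array on which alpha, beta and gamma subunits were all above background. SCNN1D, the delta subunit, was dim in every line, at 45.4 in HT-29 and 42.8 in MDA-MB-436, against 32.4 in MCF10A. The channel-activating protease genes PRSS8 and ST14 were bright in HT-29 and MCF10A and under background in MDA-MB-436, as SCNN1A was. PRSS8 was at 1355 in HT-29 and 21 in MDA-MB-436, against 152 in MCF10A, and ST14 was at 1254 in HT-29 and 17.9 in MDA-MB-436, against 663 in MCF10A. TMPRSS4, another protease gene of the list, differed from both in being above background in HT-29 alone, at 723 in HT-29 and 10.8 in MDA-MB-436, against 13.5 in MCF10A. FXYD3, which encodes a regulator of the sodium pump, was at 558 in HT-29 and 49.2 in MDA-MB-436, against 1859 in MCF10A, and so was lowest in MDA-MB-436, as SCNN1A was. CFTR, the chloride channel gene, was above background in HT-29 alone, at 101, near the brightest olfactory receptor gene, and exceeded MCF10A at least 3.38-fold. NEDD4L, the ubiquitin ligase that SGK1 blocks, was at 565 in HT-29 and 616 in MDA-MB-436, against 484 in MCF10A. Of the 14 genes measured, 4 were at least 4-fold higher (4.34% of all genes) and 2 lower (3.5%) in HT-29 than in MCF10A, and 0 (3.65%) and 5 (2.01%) in MDA-MB-436. The median log2 differences were 0.15 and -0.07, the second 0 with values under background set to the background.

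The clock genes beside PER1 had no common order. Of 14 measured, 1 was at least 4-fold higher (4.34% of all genes) and 0 lower (3.5%) in HT-29 than in MCF10A, and 1 (3.65%) and 1 (2.01%) in MDA-MB-436. The median log2 differences were 0.26 and 0.72, or 0 and 0.58 with values under background set to the background. BMAL1, the activator of the clock, was at 191 in HT-29 and 123 in MDA-MB-436, against 629 in MCF10A, so that MCF10A was highest, as for PER1. PER2, a relative of PER1, was at 277 in HT-29 and 82.5 in MDA-MB-436, against 131 in MCF10A. BHLHE41, a repressor of the clock, was 5.03-fold higher in HT-29, and RORA, an activator of BMAL1, exceeded MCF10A at least 4.36-fold in MDA-MB-436. CIART, a repressor of the clock, was at 15.7 in HT-29 and 104 in MDA-MB-436, against 49.9 in MCF10A.

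**Figure D5:**
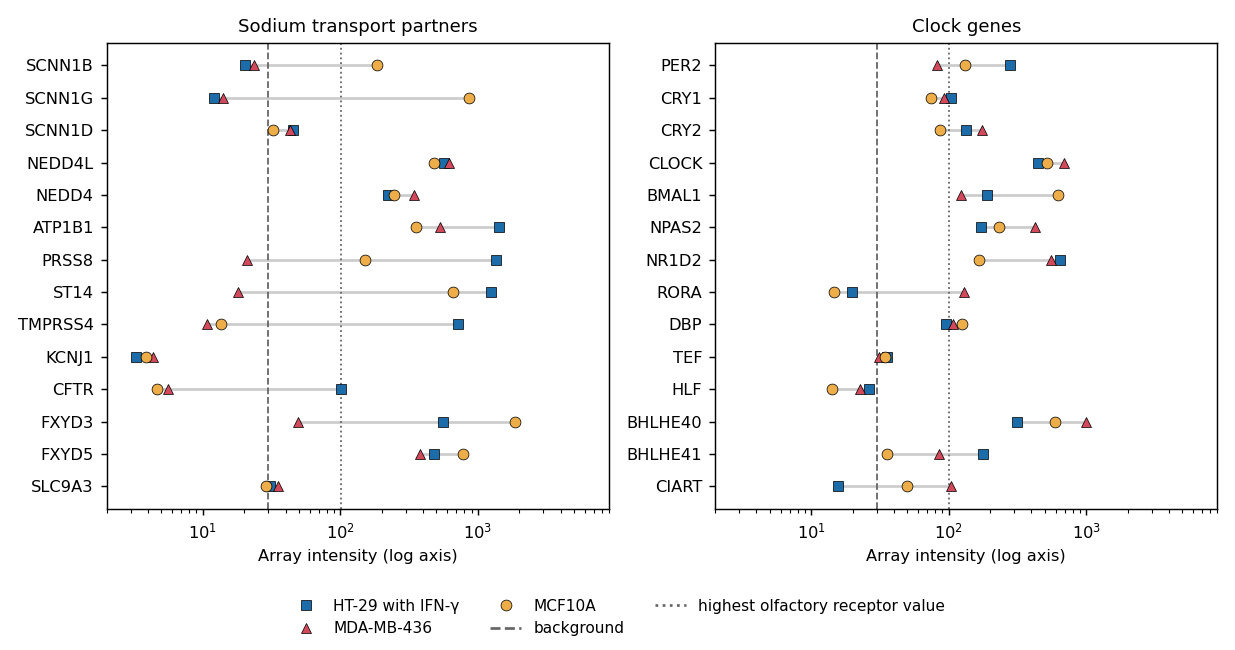
Intensity (log axis) of sodium transport partners of SCNN1A (left) and of clock genes beside PER1 (right) in HT-29 with IFN-γ, MDA-MB-436 and MCF10A, 1 array each, with the background of 29.9 (dashed) and the highest olfactory receptor value of 101 (dotted). SCNN1B and SCNN1G are above background in MCF10A alone, and PRSS8 and ST14 are under background in MDA-MB-436 alone.

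Of 23 measured relatives of the members, 4 were at least 4-fold higher (4.34% of all genes) and 1 lower (3.5%) in HT-29 than in MCF10A, and 1 (3.65%) and 3 (2.01%) in MDA-MB-436. Of the family of TSC22D3, TSC22D1 and TSC22D4 differed by at most 1.25-fold between any 2 lines, and TSC22D2 was 2.59-fold higher in HT-29 than in MCF10A. DUSP6, a phosphatase of the ERK kinases, was at 1093 in HT-29 and 64.8 in MDA-MB-436, against 633 in MCF10A, a far wider range than that of DUSP1. DUSP4 and DUSP10, phosphatase genes of the same family, were lowest in HT-29. DUSP4 was at 61.6 in HT-29 and 129 in MDA-MB-436, against 259 in MCF10A, and DUSP10 was at 27.2 in HT-29 and 209.7 in MDA-MB-436, against 93.5 in MCF10A. SGK2 was above background in HT-29 alone, at 249, in contrast to SGK1. KLF4 was at 800.0 in HT-29 and 297 in MDA-MB-436, against 53.1 in MCF10A, lowest where KLF9 was highest. KLF5 was at 2180.4 in HT-29 and 249 in MDA-MB-436, against 1686 in MCF10A, lowest in MDA-MB-436 as KLF9 was. The order of KLF9 is uncertain, since all its values lie under 101. ZBTB20, of the zinc finger family of ZBTB16, was at 87.7 in HT-29 and 55.9 in MDA-MB-436, against 15.9 in MCF10A, and so was under background where ZBTB16 was highest.

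DUSP1, SGK1, PER1 and ERRFI1 are also known to answer to growth factors or cAMP, and the MCF10A medium held EGF, a growth factor, and cholera toxin, which raises cAMP. Of 19 measured immediate early genes of growth factor signalling, 4 were at least 4-fold higher (4.34% of all genes) and 0 lower (3.5%) in HT-29 than in MCF10A, and 2 were higher (3.65%) and 1 lower (2.01%) in MDA-MB-436. The median log2 differences were 1.04 and 0.20. EREG, which encodes a ligand of the EGF receptor, was at 3255 in HT-29 and 961 in MDA-MB-436, against 266 in MCF10A. ATF3, which encodes a stress-induced transcription factor, had intensities of 409 in HT-29 and 175 in MDA-MB-436, against 34.3 in MCF10A. JUN, a subunit gene of the AP-1 factor, was at 587 in HT-29 and 449.9 in MDA-MB-436, against 98.5 in MCF10A. All 3 were lowest in MCF10A. For others MDA-MB-436 was lowest. EGR1 was at 1686 in HT-29 and 157 in MDA-MB-436, against 392 in MCF10A, an order shared with ERRFI1. FOS was at 371 in HT-29 and 47 in MDA-MB-436, against 161 in MCF10A. ZFP36, which encodes an mRNA-destabilising protein, was at 763 in HT-29 and 52.8 in MDA-MB-436, against 252 in MCF10A. HBEGF, another EGF receptor ligand gene, had the same order, at 1118 in HT-29 and 119.7 in MDA-MB-436, against 374 in MCF10A. MCF10A was highest for 3 of the 19, namely SPRY2, MYC and EGR3, the last under background in every line. SPRY2 was at 298 in HT-29 and 360 in MDA-MB-436, against 733 in MCF10A. MYC was at 1215 in HT-29 and 687 in MDA-MB-436, against 1630 in MCF10A. Both were short of 4-fold.

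Of 14 cAMP and CREB genes, 1 was at least 4-fold higher (4.34% of all genes) and 0 lower (3.5%) in HT-29 than in MCF10A, and 1 (3.65%) and 1 (2.01%) in MDA-MB-436. The median log2 differences were 0.20 and 0.19, the first 0.05 with values under background set to the background. PPP1R15A, which encodes a stress-induced phosphatase subunit, had 813 in HT-29 and 324 in MDA-MB-436, against 87.7 in MCF10A. AKAP12, a scaffold gene of protein kinase A, was above background in MDA-MB-436 alone, at 129. RGS2, a brake on G protein signalling that is also in the glucocorticoid-induced list, was at 381 in HT-29 and 129.8 in MDA-MB-436, against 572 in MCF10A. PDE4B, which encodes a cAMP phosphodiesterase, was at 10.9 in HT-29 and 45.2 in MDA-MB-436, against 27.0 in MCF10A. These genes had no common order. The cAMP target NR4A1 was at 67.2 in HT-29 and 57.9 in MDA-MB-436, against 50.2 in MCF10A, all under 101. SIK1, another gene of the list, was at 155 in HT-29 and 151 in MDA-MB-436, against 359 in MCF10A. It was thus 2.31-fold and 2.38-fold lower than in MCF10A. MCF10A was highest for 4 of the 14. The part of EGF and cholera toxin in the values of the members was not tested.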

How the data were processed

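Exon arrays of 3 cell lines were analysed, 1 array per line, grouped by the sample titles. The authors deposited 1 linear intensity for each of 18708 transcript clusters. Build hg19 is named, per the submitters' processing notes. How probes were summarised and arrays normalized is not given in the sources used here. Gene names came from GEO's platform annotation, and 14705 of 14733 single symbols were updated by gene identifier against RefSeq; 2875 clusters with several symbols were left unnamed, apart from that of FKBP5. Of several clusters of a gene the one with the highest mean was used. Differences are log2 ratios of the values as deposited. The members and lists were chosen with earlier results of these data known. Named genes are all members, all genes of receptors and steroid handling, and from every other list those with the greatest differences past 4-fold (up to 4, plus up to 2 against the list's direction, per comparison); other genes named were picked after their values were seen. Promoter windows and motif matches come from RefSeq sequences. The counting step was tested on simulated data. Tools were pandas 2.3.3 and numpy 2.4.6 under Python 3.11.15, with figures drawn in matplotlib 3.10.9.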

Additional observations from a re-analysis of the deposited data

How the results depend on the processing

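No paired analysis was possible because each line had 1 array. Quantile normalization moved the median of all genes by -0.12 (log2) for HT-29 minus MCF10A and median centring moved it by -0.11 for MDA-MB-436 minus MCF10A; the 30 member differences kept their sign under both. The counts of members past 4-fold stayed within 1.5 times under every alternative but these: a fold of 2 gave 4 for HT-29 minus MCF10A, in place of 2, and a fold of 8 gave 1 for HT-29 minus MDA-MB-436, in place of 3. The single member call lost was TSC22D3 in MDA-MB-436 minus MCF10A, at -1.94 after quantile normalization, which left 3 members called in place of 4. No called difference turned its sign. Of 684 recomputed differences of the other named genes 13 lost the 4-fold call and 1 gained it; 9 of those lost had a value under background set to the background, among them HSD11B2 at -1.06 for MDA-MB-436 minus MCF10A. List medians near 0 turned sign with scaling, such as that of receptor coregulators in MDA-MB-436 minus MCF10A, at -0.04 as deposited and 0.23 after quantile normalization. The number of arrays limits the precision, and values under 101 are hard to tell from background.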
